A study of Canis lupus familiaris with 28 samples.

Results

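The RNA helicase and splicing factor genes were followed in the blood of dogs with atopic dermatitis (AD), a chronic itching skin disease with hypersensitivity to environmental allergens, and of healthy dogs. Members were chosen by array gene name, as the DDX, DHX, RBM, SRSF, SF3A, SF3B and SNRP genes. The 3 names DDX58, DDX60 and DHX58, of helicases best known as sensors of viral RNA or interferon responses, were left out. The array named 102 such genes with 200 probes, out of 43603 probes in all. Of these genes, 95 had at least 1 probe past the signal filter (183 of the 30202 probes that passed), and each was represented by its brightest probe. The 7 genes with no such probe were DDX4, DDX25, DHX30, RBM24, RBM44, RBM46 and SRSF12, and they are not described further.

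A gene becomes messenger RNA only after its introns are cut out by the spliceosome. Of the SNRP proteins, the Sm proteins form a ring around most small nuclear RNAs of the spliceosome, and others belong to the U1 and U2 particles. The SF3A and SF3B proteins hold the U2 particle to the branch site of the intron. SR proteins (SRSF) bind exons and recruit the machinery. DDX and DHX proteins use ATP to pull RNA strands or RNA and protein apart at each step of splicing, and also in ribosome assembly, mRNA export, translation and decay. RBM is a name for proteins with an RNA recognition motif, many of which choose between splice sites. Blood leukocytes splice many of their receptor and signalling genes in more than one way.

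RNA came from the blood of 20 AD dogs and 8 healthy dogs, privately owned animals of various breeds, with 1 two-color Agilent canine array for each dog. The labels give no drug treatment, genotype or age. Per the methods of the study, ages overlapped, females were the majority among AD dogs and the minority among healthy dogs, and breeds were not matched, so sex and breed are partly tied to the groups. The AD dogs were sampled while they showed clinical signs, and the methods of the study exclude anti-inflammatory drugs in the preceding weeks. On each array Cy5 marked the RNA of the dog and Cy3 marked a common reference, pooled from 13 other healthy dogs. The log2 ratio of the Cy5 to the Cy3 signal, centered on the median of the array, is called the log2 ratio here. The log2 fold change is the difference between the group means of this ratio, and a value above 0 means a higher level in AD dogs.

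From 84.3% to 90.3% of probes were well above background on the arrays of healthy dogs, and from 51.7% to 87.5% on those of AD dogs. There were 8 slides and 5 scan days, and each slide and each day held 1 group only, so slide, scan day and disease cannot be told apart. The 7 arrays with fewer than 65% of probes well above background were all from AD dogs, and 6 of them made up scan day 5. Bulk blood RNA was measured, in which fewer cells of a type and less RNA per cell cannot be told apart. The probes of T cell and monocyte marker genes were well above background on every array (100%), beside 60.3% of the readings of skin cell genes. Of the marker genes of blood cells tested, 8 of 9 for neutrophils and 6 of 6 for red cell precursors had a log2 fold change above 0 (medians 0.18 and 0.42). Below 0 were 4 of 4 for platelets and 3 of 3 for cytotoxic and NK cells (medians -0.30 and -0.24). The 4 skin cell genes tested were also all below 0 (median -0.12). The other lists were mixed, with 4 of 9 T cell, 3 of 6 B cell, 3 of 6 monocyte and 2 of 4 eosinophil and basophil genes below 0. The mean log2 ratio of the red cell list ran from -1.74 to 1.47 in AD dogs and from -1.52 to 1.29 in healthy dogs. None of these genes had an unadjusted p under 0.05, and the part of cell makeup in the results below was not tested.

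What the array read of these genes is a set of short stretches of their messenger RNA, each matched by a probe of 60 bases. The probes below are shown because the results turn on them. They are both probes of SRSF5 and the probe of DHX8, the members with the smallest p. The probe of DDX28, the member that varied most among AD dogs, follows. Probes of DDX1 and DDX23 come last, where values differed in size in DDX1 and also in sign in DDX23. Positions are those in the array files, on the dog genome build canFam3, and a span above 60 bases means that the probe joins exons on both sides of an intron. Capitals in the DDX1 probe mark codons for the last residues of helicase motif I, which holds ATP, and the residues that follow. The rest of motif I lies outside this probe. Capitals in the DDX23 probe mark the codons of helicase motif VI. These were searched in the 3 reading frames of the strand printed. The string searched for motif I was found in 1 and that for motif VI in 1 of the 200 probes of the members. Over all 43603 probes they were found in 1 and 3. Probes with only other parts of motif I are not counted.
SRSF5 probe at chr8:43517478-43518013, plus strand: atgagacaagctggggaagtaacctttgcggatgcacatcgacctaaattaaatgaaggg
SRSF5 probe at chr8:43518013-43518072, plus strand: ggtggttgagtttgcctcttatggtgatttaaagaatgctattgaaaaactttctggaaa
DHX8 probe at chr9:19736496-19736555, minus strand: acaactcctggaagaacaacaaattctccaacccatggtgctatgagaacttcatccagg
DDX28 probe at chr5:81491112-81491171, plus strand: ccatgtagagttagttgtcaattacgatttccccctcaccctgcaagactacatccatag
DDX1 probe at chr17:11436391-11437464, plus strand: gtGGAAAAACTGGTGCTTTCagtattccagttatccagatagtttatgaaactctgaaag
DDX1 probe at chr17:11445046-11445218, plus strand: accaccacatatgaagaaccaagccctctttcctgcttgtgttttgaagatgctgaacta
DDX1 probe at chr17:11459608-11459667, plus strand: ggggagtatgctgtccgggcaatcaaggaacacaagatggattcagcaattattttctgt
DDX23 probe at chr27:5696892-5697254, plus strand: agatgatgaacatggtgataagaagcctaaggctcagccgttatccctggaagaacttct
DDX23 probe at chr27:5703456-5703864, plus strand: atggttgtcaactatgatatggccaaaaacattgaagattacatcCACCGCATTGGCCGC

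Between AD and healthy dogs the 95 genes differed little. All 95 log2 fold changes lay between -0.42 and 0.47. By brightest probe, 22688 of all 23379 genes also had a log2 fold change within 0.5 on either side of 0. In all 95 genes the values of AD and healthy dogs overlapped, which was not counted over all genes. With limma and Benjamini-Hochberg adjustment, 0 of the 95 genes passed the threshold of the study, an adjusted p of 0.085, and the smallest adjusted p was 0.55. Of all probes tested, 0% passed it. The signal filter here kept more probes than that of the study. The study reports transcripts past this threshold, among them DDX1 and RBM25, both lower in AD dogs. With an unadjusted p under 0.05 there were 6 of 95 genes (6.32%), beside 6.12% of all probes and 6.95% of all genes by their brightest probe. Lower in AD dogs were 4 of the 6, SRSF5, DDX41, RBM20 and DHX57 (4.46% of all probes were lower at this p). Higher were DHX8 and SNRPD2 (1.65% of all probes). The share of members is thus close to the share of all probes. The 95% confidence interval of the log2 fold change lay within 0.5 on either side of 0 for 64 genes and within 1 for all 95. The lowest bound was -0.82 (DHX57) and the highest 0.94 (DHX33). Such intervals were not counted over all genes. With limma's array weights, which give less weight to noisier arrays, 3 members passed the threshold, SRSF5, DDX26B and DHX57, each lower in AD dogs, beside 3.34% of all probes.

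**Figure D1:**
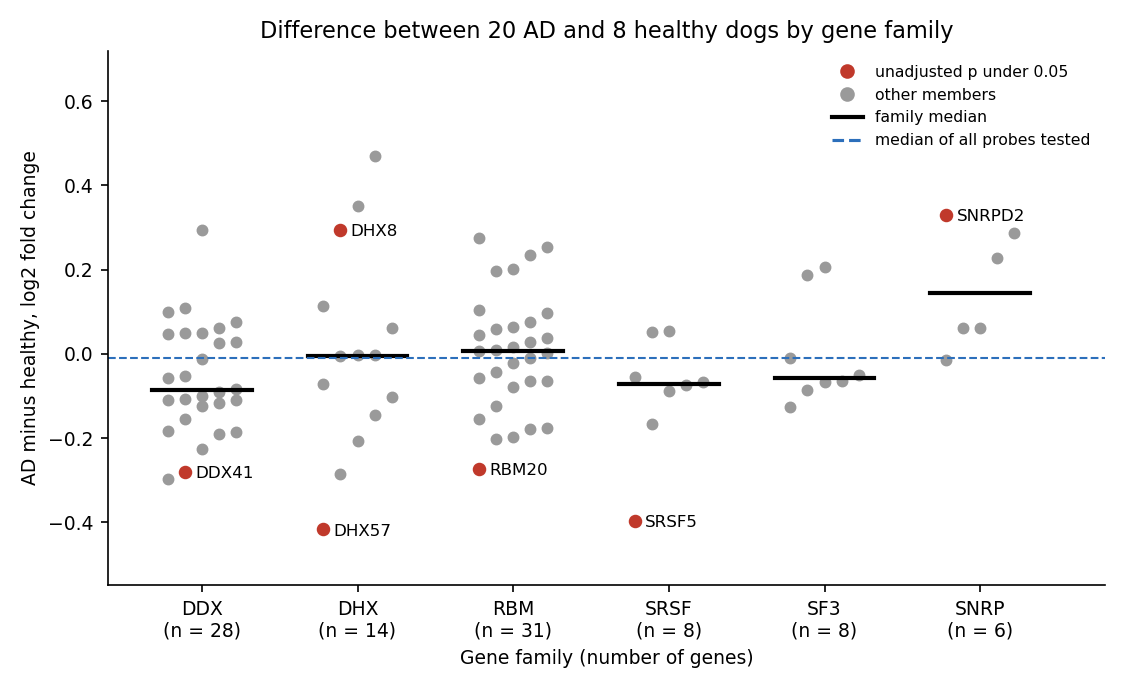
Log2 fold change (AD minus healthy dogs) of each of the 95 genes, by family, with the family median as a black bar and the median of all 30202 probes as a dashed line. Red points are the 6 genes with an unadjusted p under 0.05, and every point lies between -0.42 and 0.47.

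SR proteins bind short enhancer sequences in exons and help the spliceosome to find the splice sites beside them. Of the 8 SRSF genes, 6 had a log2 fold change below 0 and 2 above, with a median of -0.071, beside -0.0096 for all probes tested. SRSF5 had the smallest p of all 95 genes. Its log2 ratio was -0.73, -0.38 and 0.20 (lowest, median and highest) in AD dogs and -0.62, -0.0026 and 0.82 in healthy dogs. Most AD dogs thus sat low, 18 of 20 below the healthy mean, and 4 lay below the lowest healthy dog, while the healthy dogs reached higher than any AD dog. The means were -0.33 ± 0.28 (SD, n = 20) and 0.071 ± 0.48 (SD, n = 8), a log2 fold change of -0.40 with SE 0.15 (unadjusted p = 0.0115, adjusted p = 0.55, limma). The second SRSF5 probe, which begins at the base where the first ends, gave -0.33. SRSF6 had a log2 fold change of -0.17 and SRSF2 one of -0.074, neither with an unadjusted p under 0.05. SRSF2 showed little spread in healthy dogs, with log2 ratios of 0.27 ± 0.094 (SD, n = 8).

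The DHX proteins include the helicases that drive the late steps of splicing and take the spliceosome apart. Of 14 DHX genes, 9 had a log2 fold change below 0, and the median was -0.0042. DHX8, which releases the finished mRNA from the spliceosome, had log2 ratios of -0.29, 0.21 and 0.48 (lowest, median and highest) in AD dogs and -0.56, -0.15 and 0.24 in healthy dogs. Here 16 of 20 AD dogs lay above the healthy mean, and the ranges overlapped from -0.29 to 0.24. The log2 fold change was 0.29 with SE 0.11 (unadjusted p = 0.0120, adjusted p = 0.55, limma). DHX57, a helicase whose role is little described, differed the other way. Its log2 ratio was -1.86, -0.53 and 0.11 in AD dogs and -0.88, -0.076 and 0.37 in healthy dogs, with a log2 fold change of -0.42 and SE 0.20 (unadjusted p = 0.0447, limma). In the dog's channel alone, without the common reference, the difference in DHX57 turned to 0.11. The largest log2 fold change of the 95 genes was that of DHX33, a helicase of ribosome assembly, at 0.47 with SE 0.23 (unadjusted p = 0.0519, limma). Its log2 ratio was -0.23, 0.33 and 2.28 (lowest, median and highest) in AD dogs and -0.25, 0.045 and 0.49 in healthy dogs. Of the 20 AD dogs 7 lay above every healthy dog, and the 5 highest of them, led by AD dog 20, were all on arrays with fewer than 65% of probes well above background. Without those arrays the log2 fold change was 0.18, and the part of array quality was not tested.

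**Figure D2:**
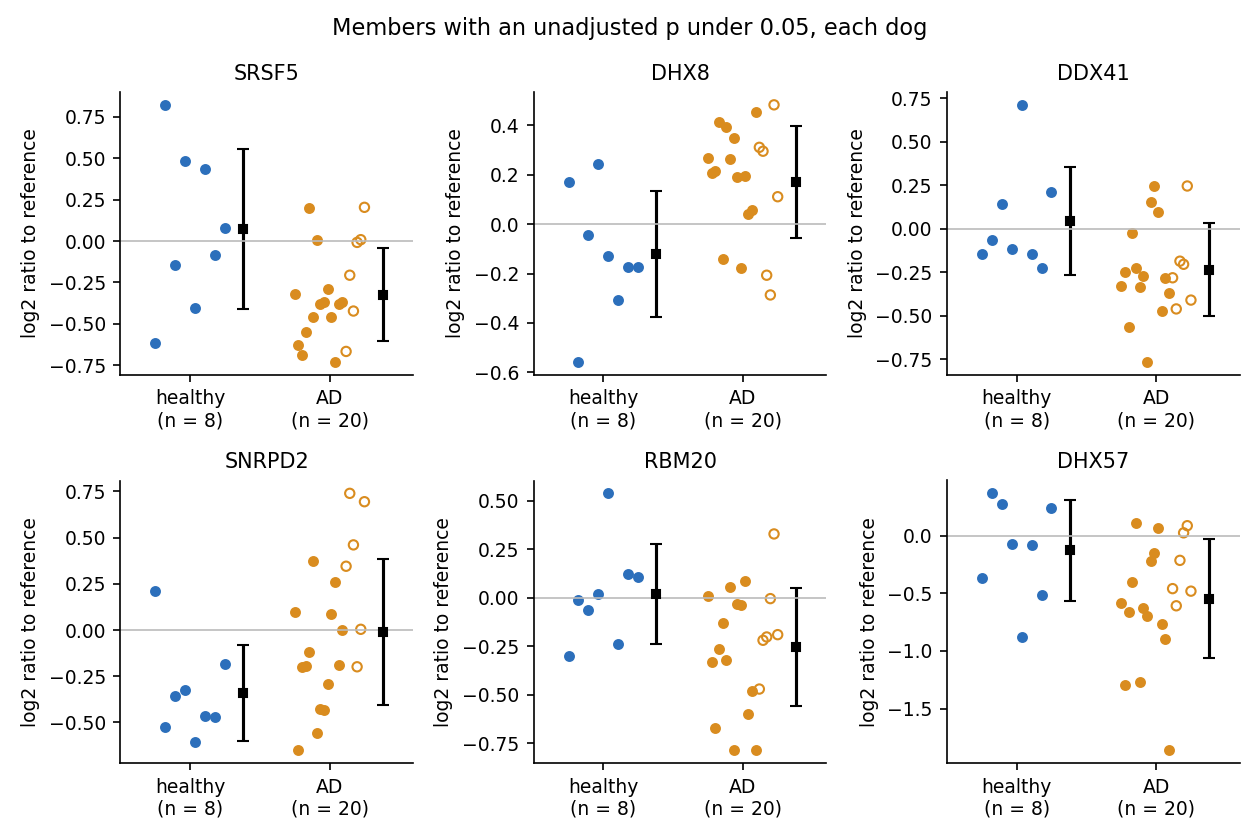
Log2 ratio (dog to reference) in each dog for the 6 genes with an unadjusted p under 0.05, with mean and SD at the right of each group. Blue points are healthy dogs, orange points AD dogs, and open points the AD dogs of scan day 5. In each panel the groups overlap.

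Of 28 DDX genes, 18 had a log2 fold change below 0 and 10 above, with a median of -0.087. DDX41, a helicase of the spliceosome that is also described as a sensor of DNA, had log2 ratios of -0.77, -0.28 and 0.25 in AD dogs and -0.23, -0.090 and 0.71 in healthy dogs. The highest healthy value came from 1 animal, healthy dog 5, and the next was 0.21. The log2 fold change was -0.28 with SE 0.12 (unadjusted p = 0.0311, limma), and the second DDX41 probe, which is the same stretch moved by 1 base and so no separate reading, gave -0.32. DDX26B had a log2 fold change of -0.30 at its brightest probe and of -0.055 at its other probe. Despite its array name it belongs to the Integrator complex and is not known as a helicase. DDX18, a nucleolar helicase of ribosome assembly, had one of 0.29, with the highest value, 1.21, in AD dog 20. Neither DDX26B nor DDX18 had an unadjusted p under 0.05. The 5 highest AD values of DDX18 all came from arrays with fewer than 65% of probes well above background. The part of array quality in this was not tested. Across 23 alternatives of the processing the log2 fold change of DDX18 ran from 0.099 to 0.44.

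Of 31 RBM genes, 14 had a log2 fold change below 0 and 17 above, and the median was 0.0064. RBM20, known for its part in splicing the titin gene in heart muscle, had log2 ratios of -0.79, -0.21 and 0.33 in AD dogs and -0.30, 0.0032 and 0.54 in healthy dogs. Of the AD dogs 17 of 20 lay below the healthy mean, at a log2 fold change of -0.27 with SE 0.13 (unadjusted p = 0.0422, limma). The other RBM20 probe gave -0.24, without an unadjusted p under 0.05. RBM23, a splicing regulator, had a log2 fold change of 0.27 and RBM27, an RNA-binding zinc finger protein, one of -0.20, and neither had an unadjusted p under 0.05. At the brightest probe of RBM27, 18 of 20 AD dogs lay below the healthy mean, while its other probe gave a log2 fold change of 0.0015. RBM25, a splicing regulator that the array names only in the description of a probe and that is therefore no member, had a log2 fold change of 0.036 with SE 0.18. The study lists RBM25 as lower in AD dogs.

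The core proteins of the small nuclear particles were few on the array. Of 6 SNRP genes, 5 had a log2 fold change above 0, with a median of 0.14, the highest of the 6 families. This median was 0.066 when all 4 medians of a probe had to exceed 100, 0.0063 with array weights and 0.014 without the last scan day, and -0.012 with dog number as a block. SNRPD2, a protein of the Sm ring, had log2 ratios of -0.65, -0.061 and 0.74 in AD dogs and -0.61, -0.41 and 0.21 in healthy dogs. All but 1 of the healthy dogs were below 0, and 16 of 20 AD dogs lay above the healthy mean. Of the 5 highest AD values, 4 came from arrays with fewer than 65% of probes well above background. The part of array quality in this was not tested. Across 23 alternatives of the processing the log2 fold change of SNRPD2 ran from 0.13 to 0.42. The log2 fold change was 0.33 with SE 0.15 (unadjusted p = 0.0388, limma). SNRPG, of the same ring, had a log2 fold change of 0.29, and SNRPA, the U1 particle protein that binds a stem loop of U1 RNA, one of 0.23, both without an unadjusted p under 0.05. Without the last scan day that of SNRPG was -0.0060. Of 8 SF3A and SF3B genes, 6 had a log2 fold change below 0 and the median was -0.057. SF3A2 (0.21), SF3B5 (0.19) and SF3A1 (-0.13) had the smallest p among them, all above 0.2.

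Grouped by role, 9 of 15 spliceosomal helicases had a log2 fold change below 0 (median -0.013), as did 9 of 15 helicases of ribosome assembly (median -0.053) and 7 of 8 helicases of export, translation, decay and tRNA ligation (median -0.11). Over all genes 52.8% had a log2 fold change below 0 (median -0.013). These groups held 2, 0 and 1 genes with an unadjusted p under 0.05, beside 6.95% of all genes. The 1 gene of the last group was DHX57, whose role is little described. The last group also counted DDX20 (log2 fold change -0.15), whose best described role lies outside these steps. The ribosome assembly group counted DHX32, whose role is unsettled. Of 50 other tested genes of the spliceosome and its regulators, which are no members, 26 had a log2 fold change below 0 (median -0.021) and 0 passed the threshold. The 1 with an unadjusted p under 0.05 was HNRNPK, a protein that packages new transcripts, at 0.39 with SE 0.13 (unadjusted p = 0.0053, adjusted p = 0.49, limma).

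Of the 95 genes, 54 had more than 1 probe tested, which allowed readings of the same gene to be compared. In 24 of the 54 the probes fell on both sides of 0, and the median distance between the lowest and highest log2 fold change of a gene was 0.16. In 2 of them, SRSF5 and DDX41, every probe had an unadjusted p under 0.05, but the DDX41 probes cover almost the same stretch and are no separate readings. Neither this count nor that of genes with probes on both sides of 0 was made over all genes. Over all 183 probes of the members 13 (7.10%) had an unadjusted p under 0.05, beside 6.12% of all probes. DDX1, a helicase of tRNA ligation and of RNA transport, had 4 probes, all below 0. The probe with the end of motif I gave -0.098. The second probe printed gave -0.35 with SE 0.10 (unadjusted p = 0.0017, adjusted p = 0.49, limma). The third, which is the brightest, gave -0.12 with SE 0.10, and the last, farthest toward the end of the gene, -0.072. The probes of DDX1 thus agreed in sign, and the choice of probe moved the value by up to 0.28.

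DDX23, which opens the pairing of U1 RNA at the splice site, had the widest range of all, 0.70 over 4 probes. The probe nearest the start of the gene gave -0.45 with SE 0.17 (unadjusted p = 0.0124, limma), the probe with motif VI gave 0.25 with SE 0.17, and the remaining 2 gave -0.14 and -0.058. Next came DDX6, which represses translation and promotes decapping of mRNA, with 0.061 at its brightest probe and 0.51 with SE 0.22 at the other. RBM4, a splicing regulator, ran from -0.33 to 0.10 over 4 probes. SF3B1, the largest SF3B protein, ran from -0.19 to 0.22 over 6 probes, and DDX3X, a helicase of translation, from -0.11 to 0.29 over 3. For RBM23 the brightest probe gave 0.27 and the other -0.094. In each of these genes the sign of the difference depended on the probe except in DDX6. The probes of a gene can also read different transcripts, which the array files do not tell apart.

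**Figure D3:**
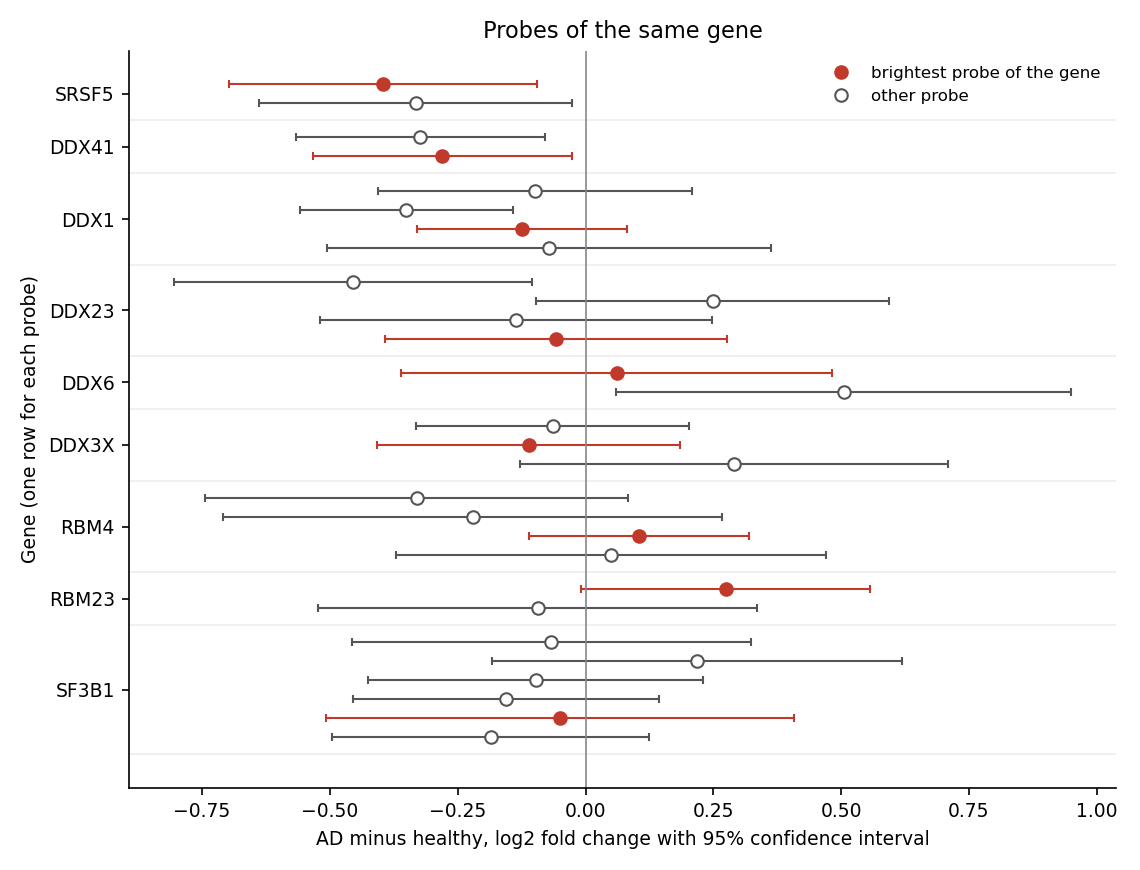
Log2 fold change (AD minus healthy dogs) with its 95% confidence interval for each probe of 9 genes, in order of genome position within a gene. Filled red points are the brightest probe. The 4 probes of DDX1 lie below 0, and those of DDX23 run from -0.45 to 0.25.

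The spread among dogs was then measured for each member. The median SD of a member over AD dogs was 0.39 and over healthy dogs 0.29, while that of all genes was 0.44 and 0.29. In 70 of 95 members (73.7%) the SD was larger in AD dogs, beside 79.3% of all genes. DDX28, a helicase of the mitochondrial ribosome, had the largest SD over AD dogs of all members, 1.01, and it came from 1 array. In AD dog 20 its log2 ratio was 4.36, and in the other AD dogs it ran from -0.39 to 0.24. On that array the spot had a signal of 4011 in the dog's channel and 205 in the common reference channel, while on the other 27 arrays the dog's channel ran from 380 to 1025 and the reference from 420 to 792. The mean log2 ratio of AD dogs without it was -0.092. Only 1 probe of DDX28 was tested. The array of AD dog 20 also had the lowest share of probes well above background, 51.7%, and the part of array quality in this value was not tested.

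SNRPG had the next largest SD, 0.87, with log2 ratios from -1.82 in AD dog 7 to 1.54 in AD dog 19, and unlike DDX28 it was spread over many dogs. DHX33 followed with 0.67. In the remaining families the largest SDs were those of RBM38 (0.58), which binds and stabilizes the mRNA of cell cycle inhibitors, SF3A2 (0.54) and SRSF7 (0.48), an SR protein that also takes part in mRNA export. RBM38 ran from -0.66 to 1.54 in AD dogs and from -0.064 to 0.63 in healthy dogs.

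Members of some families varied together from dog to dog. Over the 20 AD dogs the median Pearson correlation between pairs was 0.39 for SRSF genes (28 pairs) and 0.36 for DDX genes (378 pairs). It was 0.27 for SNRP, 0.12 for RBM, 0.057 for SF3 and 0.00086 for DHX genes, and -0.0049 between members and all other genes. Over all pairs of members it was 0.23. In the 8 healthy dogs it was 0.46 for SRSF, 0.32 for SNRP and 0.26 for DDX genes, and 0.15 over all pairs of members. When the mean of each slide was removed, the AD values were 0.35 for SRSF, 0.29 for DDX and 0.0026 for SNRP genes. The 3 families thus lay above the value of all pairs in both groups, and SRSF and DDX genes kept most of it within slides, while that of SNRP genes was near 0 there. The most alike pair in AD dogs was SRSF7 with DDX17, the partner of DDX5 in splicing and transcription (r = 0.94, and 0.40 in healthy dogs), followed by DDX39A with SF3A3 (r = 0.94 in both groups). These pairs were picked from 4465 as the highest. The points share arrays, slides and depth, so the correlations are a description.

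By dog, the median log2 ratio of the SRSF genes ran from -0.50 to 0.23 in AD dogs and from -0.54 to 0.20 in healthy dogs. That of the DDX genes ran from -0.61 to 0.20 and from -0.37 to 0.15, and that of the SNRP genes from -0.34 to 0.69 and from -0.59 to 0.14. In healthy dog 5 the SRSF, SNRP and RBM medians were the lowest of the healthy group and the SF3 median was the highest. Among AD dogs, dog 14 had the lowest DDX, RBM and SNRP medians, and dog 20 the highest DDX and SNRP medians. Both have fewer than 65% of probes well above background, and the part of array quality in this was not tested.

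The family medians of AD dogs were also compared by scan day. The mean SNRP median was -0.19 ± 0.12 (SD, n = 4) on day 1, 0.023 ± 0.22 (SD, n = 4) on day 3, -0.013 ± 0.21 (SD, n = 6) on day 4 and 0.25 ± 0.26 (SD, n = 6) on day 5, beside -0.14 ± 0.25 (SD, n = 8) in healthy dogs, all of day 2. The healthy value lay within the range of the AD days for SNRP genes. The mean DDX median was -0.29 on day 1 and -0.024 on day 5, beside -0.063 in healthy dogs. In limma's F test among the 4 scan days of AD dogs, 0 of 95 members passed an adjusted p of 0.05, beside 3.15% of all probes. With an unadjusted p under 0.05 there were 7 of 95 (7.37%), beside 11.9% of all probes. These were SNRPG, RBM3, RBM34, RBM39, DDX50, DDX18 and RBM7, of which RBM3, RBM34, RBM39, DDX50 and RBM7 were chosen after their values were seen. The mean log2 ratio of SNRPG was -0.52 on day 1, -0.35 on day 3, 0.34 on day 4 and 0.87 on day 5.

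**Figure D4:**
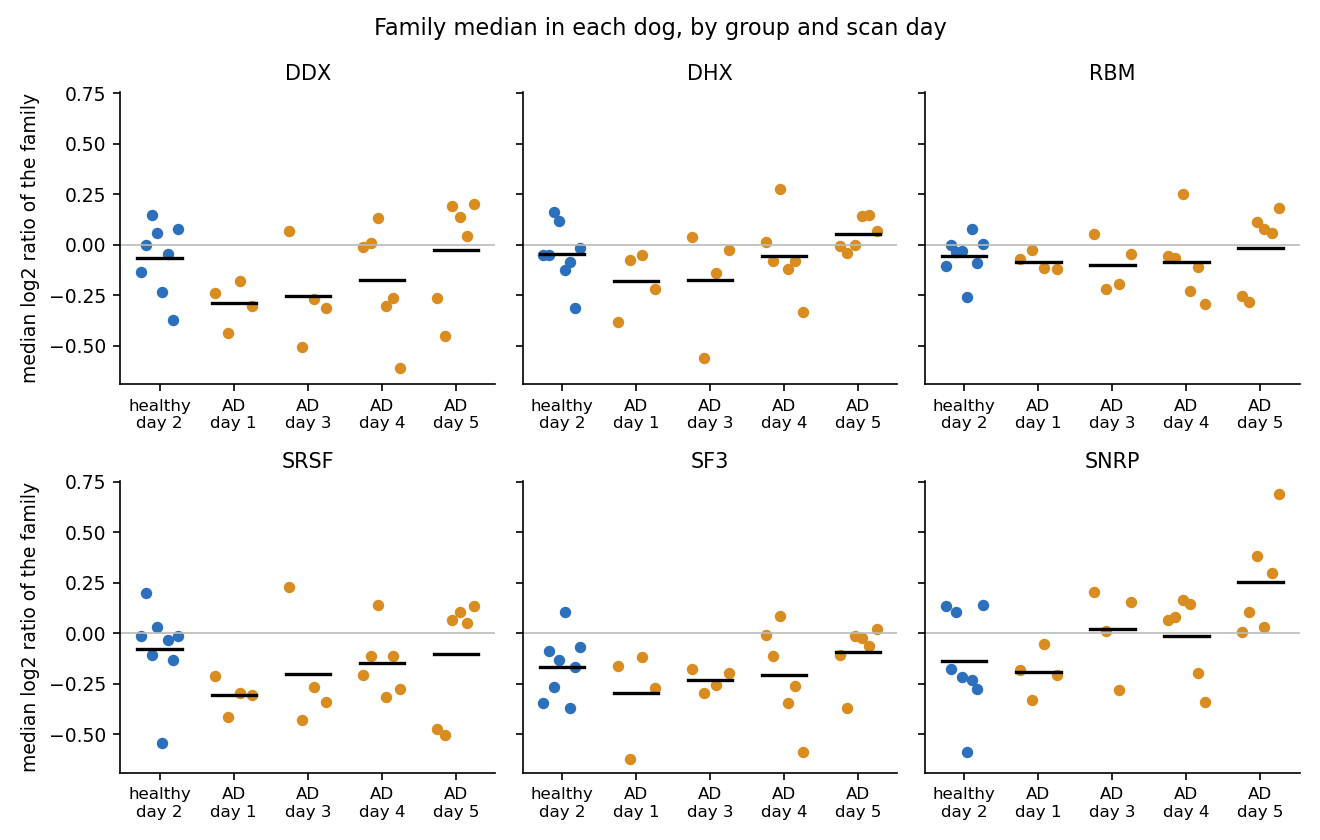
Median log2 ratio of each family in each dog, by group and scan day, with the mean of the day as a bar. Blue points are healthy dogs (day 2) and orange points AD dogs. The SNRP median was highest on day 5 (mean 0.25) and lowest on day 1 (mean -0.19).

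Each array also measured the common reference, where the RNA was the same pool on every array. In that channel 31 of 95 members (32.6%) differed at an adjusted p of 0.085 (limma, after quantile normalization), beside 39.1% of all probes. Of these, 24 were higher on AD arrays (21.1% of all probes). In the dog's channel alone 4 of 95 members (4.21%) passed, beside 4.14% of all probes. These were DHX8, DDX39B, DHX32 and RBM15, and apart from DHX8 they were chosen after their values were seen. DHX8 was higher by 0.42 in the dog's channel (adjusted p = 0.0253, limma) and differed by 0.090 in the reference channel (adjusted p = 0.39, limma).

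The other three differed in the same direction in both channels. DDX39B, which loads export factors on mRNA, was higher by 0.72 in the dog's channel and by 0.55 in the reference channel. DHX32, a DEAH-box relative of unsettled role, was higher by 0.85 and 0.86, and RBM15, a protein of the machinery that methylates RNA, was lower, with -0.48 and -0.39. In the ratio of the channels the log2 fold change was 0.098 for DDX39B, -0.0050 for DHX32 and -0.042 for RBM15. DHX57, in contrast, differed by 0.57 in the reference channel (adjusted p = 0.00065, limma) and by 0.11 in the dog's channel. SRSF5 differed by -0.36 in the dog's channel (adjusted p = 0.20, limma) and by 0.056 in the reference channel (adjusted p = 0.41, limma).

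**Figure D5:**
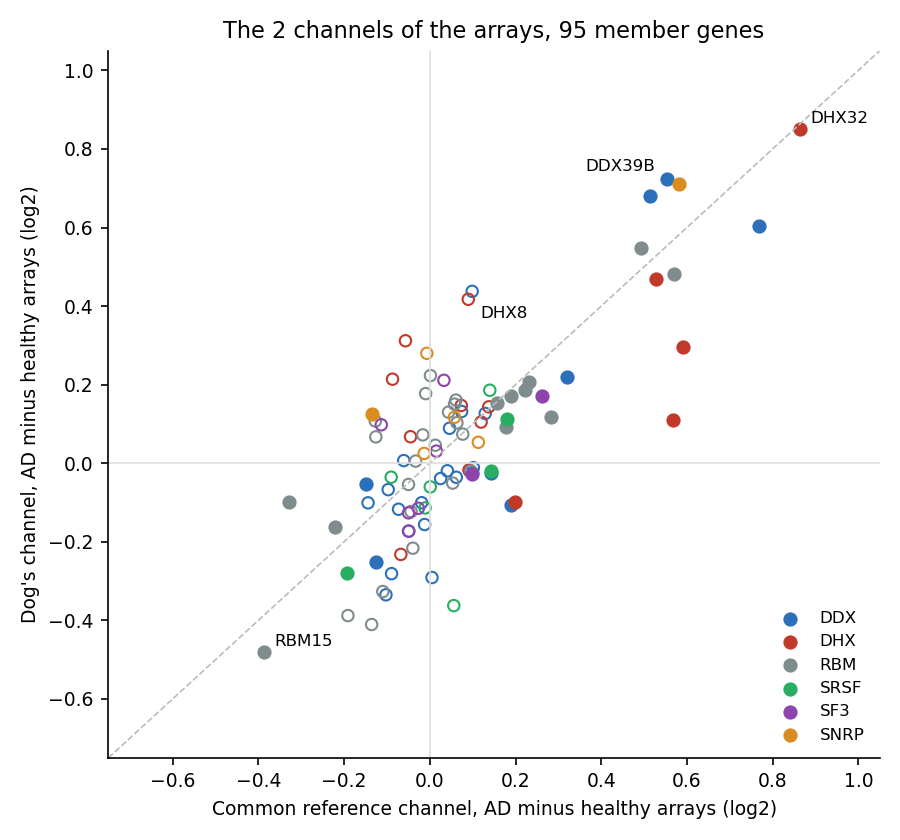
Difference between AD and healthy arrays in the common reference channel (horizontal) and in the dog's channel (vertical) for the 95 genes, both on a log2 scale, colored by family. Filled points are the 31 genes that differed in the reference channel, names mark the 4 that differed in the dog's channel, and the dashed line marks equal values in both.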

How the data were processed

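The authors extracted spot intensities from the arrays with Agilent Feature Extraction (version 10.7.3.1 per the labels, 10.10.1.1 per the file headers), which subtracted background and normalized the dyes with Lowess. The deposited files give the log10 ratio as well, and so does the authors' table of values. Here the log2 ratio of the deposited processed intensities was computed. Outlier spots were set to missing, spots of 1 probe averaged and arrays centered on their median. A probe was kept where it was well above background on any array and at least 1 of its 4 medians (channel by group) exceeded 100, with values on at least a 0.5 share of the arrays of each group. The brightest probe represented a gene. The groups were compared with limma 3.58.1 in R 4.3.3 (with the data.table package, version 1.17.8, and matplotlib 3.10.9), with Benjamini-Hochberg adjustment over all 30202 probes, and scripts were tested on simulated data. Named genes were, in each family, the 3 with the smallest p and the 1 with the largest SD in AD dogs. Added were the 6 with the widest probe ranges, and DDX1 and RBM25, which the study lists. The members and lists were chosen with earlier results of these data known. The labels give no sign that any dog was sampled more than once. The number of arrays limits the precision. Dog numbers were shared by both groups, but they are separate dogs. Alternatives varied the filter, outlier spots, background correction (normexp with offset 50 and loess), centering, channel, value table, blocks, weights, variance trend, probe rule and slides.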

Additional observations from a re-analysis of the deposited data

Results flagged for a closer look

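Within the 8 healthy dogs, 33 sets of values (single members and family medians) were searched for a dog that stood apart from the others by Dixon's test, and 3 had one, where chance marks about 1 in 20. All 3 were healthy dog 5. Its log2 ratio of DDX41 was 0.71, with the next at 0.21. Its log2 ratio of DDX28 was 0.75, with the next at 0.11. Its median over the SRSF genes was -0.54, with the next lowest at -0.13.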

How the results depend on the processing

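Across 23 alternatives for AD minus healthy dogs, the family medians moved by less than their SD over AD dogs. The sign of the DHX median turned in 4 and that of the RBM median in 9. Without slide 2, which held healthy dogs, the DDX (0.021), SRSF (0.022) and SF3 (0.036) medians turned, SF3 turned in the dog's channel alone too (0.0021), and SNRP turned with the replicate block (-0.012).

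Probes past the adjusted p of 0.085, 0 as reported, were 3 with no signal filter, 1251 in the dog's channel alone and 1009 with array weights. Members past it, 0 as reported, were 4 in the dog's channel alone and 3 with array weights. In the common reference channel (chosen after seeing the data) there were 31. Members with an unadjusted p under 0.05, 6 as reported, were 16 in the dog's channel alone, 21 with array weights, 2 with slide and 3 with scan day as a random block, and 3 (without slide 3) to 11 (without slide 5) with each slide left out. Probes at this p, 1847 as reported, were 3301 with no signal filter, 5879 in the dog's channel alone, 6052 with array weights, 1201 with slide as a random block, 2807 without the last scan day and 785 to 2778 with each slide left out. The cause was not tested.

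With dog number as a replicate block (dogs 1 to 8 of each group), there were 5177 probes and 15 members with an unadjusted p under 0.05 and 0 members past 0.085. The dogs share only a number, and the correlation of their deviations ran from -0.36 to 0.42.

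Directions that turned were those of DHX57 (0.11) and RBM23 (-0.099) in the dog's channel alone, SNRPG (-0.34), SRSF2 (0.055) and RBM25 (-0.19) with the replicate block, SNRPG (-0.0093) and RBM25 (-0.13) with array weights, and SNRPG (-0.0060) and RBM25 (-0.046) without the last scan day. RBM25 also turned without slide 3 (-0.13), slide 5 (-0.0054) and slide 8 (-0.056), its range with a slide left out being -0.13 to 0.20, and without the arrays under 65% of probes above background (-0.030, chosen after seeing the data).

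Among scan days in AD dogs, members with an unadjusted p under 0.05, 7 as reported, were 1 without the last day and 13 with normexp and loess. The share of all probes at this p was not counted under these alternatives, so these counts have no background beside them. Probes past an adjusted p of 0.05, 951 as reported, were 0 under both. Healthy dogs came from 2 slides of 1 scan day, and dim arrays limit the depth in AD dogs.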
